A study of Homo sapiens with 12 samples.

Results

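The autophagy machinery genes are 33 genes that build autophagosomes, prime and conjugate the LC3 proteins, select cargo or control these steps. They were chosen by gene symbol from a list, and 33 of the 33 symbols were present among the 25369 genes counted in the data. Transcripts were measured by RNA-seq of poly(A)-selected RNA in U2OS Tet-On cells, an osteosarcoma cell line in which doxycycline switches on a gene carried by a pTRE vector. The question was how E2F1, a transcription factor that drives entry into the cell cycle, acts when its arginine methylation sites are changed, and here that question is put to the autophagy genes.

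The 4 stable lines carried an empty vector (pTRE), WT E2F1, the KK derivative with a pair of arginines changed to lysine, or the R109K derivative with 1 arginine changed to lysine. KK lacks the sites methylated by PRMT5 and R109K lacks the site methylated by PRMT1. The E2F1 constructs carried an HA tag. There were 3 biological replicates of each line, and all 12 samples, those of pTRE included, received doxycycline at 1 µg/ml for 24 hours and were grown under G418 and hygromycin B. Each construct is represented by 1 stable line, so a difference between constructs and a difference between lines cannot be told apart. The endogenous E2F1 gene remained in every line, and reads from it and from the induced copy were counted together.

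In autophagy, a double membrane grows around cytoplasm or damaged organelles, closes, and fuses with a lysosome that digests the contents. The ULK kinase complex starts the process, a PI3K complex marks the membrane with the lipid PI3P, and WIPI proteins that read this lipid bring in the enzymes that attach LC3 and GABARAP proteins to the membrane. E2F1 is known from earlier work as an activator of autophagy genes, among them *ULK1*, *ATG5*, *MAP1LC3B* and *DRAM1*.

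Each sample had between 11500537 and 31040903 reads on genes, and 0.156 to 0.179% of them fell on the 33 genes. WT replicate 2 stood apart, with 58.7% of its reads outside annotated genes against 23.6 to 29.6% in the other samples, and with the lowest number of reads on genes. It was the highest or the lowest of the 12 samples for 16 of the 33 autophagy genes. The next samples in this count were pTRE replicate 1, with 12 genes, and pTRE replicate 3, with 9. Replicate 2 also had the highest count within the R109K and KK lines. In R109K it had 8 genes, against 1 each for replicates 1 and 3. In KK it had 7, against 0 for replicate 1 and 1 for replicate 3. E2F1 itself was at 83.0 to 101 CPM (read counts scaled to a common library size) in pTRE, 1469 to 2315 CPM in WT, 1112 to 1478 CPM in KK and 932 to 1283 CPM in R109K. As a check of the cell type, the summed level of 6 osteosarcoma and mesenchymal markers was 6128 to 7391 CPM in pTRE, 2171 to 2763 CPM in WT, 2617 to 3240 CPM in KK and 3294 to 3383 CPM in R109K. *COL1A2* was at or near 0 in every line, with at most 0.59 CPM. The summed level of 4 epithelial markers was 744 to 919 CPM in pTRE and 365 to 659 CPM across the E2F1 lines. Of the 5 mesenchymal markers tested, 2 were lower in WT, 3 in KK and 3 in R109K, beside 11.4%, 10.7% and 7.23% of all genes tested. *KRT8* was the 1 of 4 epithelial markers lower in each line. The part of these shifts in the values of the autophagy genes was not tested. In bulk RNA, fewer cells of a type and less RNA per cell cannot be told apart.

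Levels of different genes were compared only per length, as CPM per kilobase of exon in the GENCODE annotation lifted to GRCh37. The length joins the exons of all annotated transcripts of a gene, whether or not these cells express them. The order of the genes depends on this choice. In pTRE the level per kilobase ran from 38.7 ± 2.61 (SD, n = 3) for *GABARAP*, a ubiquitin-like protein of the growing membrane, to 0.329 ± 0.212 for *MAP1LC3A*, a member of the LC3 family. Next to *GABARAP* were *SQSTM1*, the cargo receptor p62, at 28.5 ± 1.60, and *ATG9A*, the membrane protein of the vesicles that seed autophagosomes, at 26.0 ± 3.78 per kilobase. The kinase *ULK2* stood near the bottom of the order at 0.333 ± 0.064 per kilobase in pTRE, while its relative *ULK1* was at 5.43 ± 0.622. Within the LC3 and GABARAP family, *MAP1LC3B* was at 14.9 ± 1.19, *GABARAPL1* at 12.9 ± 1.24 and *GABARAPL2* at 17.6 ± 0.445 per kilobase. The 4 ATG4 proteases, which trim LC3 proteins before and after conjugation, lay between 1.24 per kilobase for *ATG4A* and 5.79 for *ATG4B* in pTRE. *MAP1LC3A* had on average 11.7 reads per sample, and the other 32 genes had 132 to 5525.

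**Figure D1:**
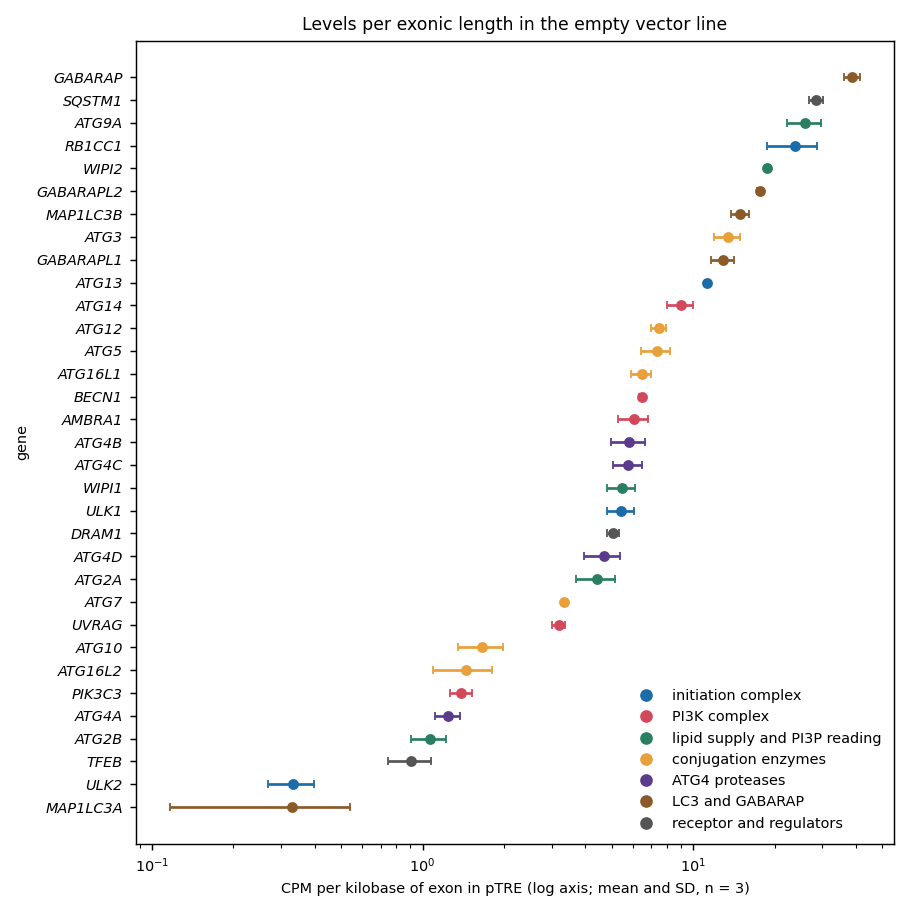
Mean level of each of the 33 autophagy genes in pTRE (points; bars are SD, n = 3 replicates), in CPM per kilobase of exon on a log axis, coloured by role. GABARAP is highest at 38.7 and ULK2 and MAP1LC3A are lowest at 0.333 and 0.329.

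A gene was called at a Benjamini-Hochberg adjusted p under 0.01 in edgeR's quasi-likelihood test over 16625 genes. In WT against pTRE, 5 of the 33 genes rose (15.2%), beside 14.8% of all genes tested, and 2 fell (6.06%), beside 11.4%. In KK against pTRE, 6 rose (18.2%) beside 13.8% of all genes, and 2 fell beside 10.7%. In R109K against pTRE, 2 rose beside 10% of all genes, and 1 fell beside 7.23%. In either direction, 7 genes (21.2%) were called in WT beside 26.2% of all genes, 8 (24.2%) in KK beside 24.4%, and 3 (9.09%) in R109K beside 17.3%. These shares in either direction were at or below the background. The rising share alone was near the background in WT (15.2% beside 14.8%). In KK it was 18.2% beside 13.8%, and its 6 genes became 2 to 4 with 1 library left out. Over all genes, the 2287 of 16625 rising in KK also became fewer in those fits. They ran from 1734 of 16993 without pTRE replicate 2 to 2188 of 16961 without KK replicate 2. Replicates lay wholly above pTRE for 10 genes in WT (background 25.2%), 11 in KK (24.9%) and 10 in R109K (24.3%), and wholly below for 7 (26.3%), 8 (24.5%) and 6 (22.9%). An unadjusted p under 0.05 was reached by 17 genes in WT (background 49%), 16 in KK (45.6%) and 14 in R109K (38.6%). At an adjusted p under 0.05, 10 genes were higher in WT (background 21.4%), 8 in KK (19.4%) and 4 in R109K (15.3%), and 4 (18.7%), 4 (17.3%) and 3 (12.9%) were lower. The median log2 fold change of the 33 genes was 0.11 in WT, -0.01 in KK and 0.03 in R109K, against 0.00, -0.01 and 0.00 over all genes. A change past 2-fold was called for 1 gene in WT (background 11.8%), 1 in KK (10.9%) and 2 in R109K (7.19%). These 3 comparisons share the pTRE samples, so agreement between them is not independent.

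Over the 3 comparisons, 9 genes were called at least once and 24 were not called. The 9 genes were *ULK2*, *UVRAG*, *WIPI1*, *WIPI2*, *ATG4A*, *ATG4B*, *MAP1LC3B*, *SQSTM1* and *DRAM1*, of which 7 rose and 2, *WIPI1* and *SQSTM1*, fell. *ULK2*, *DRAM1* and *WIPI1* were called in all 3 lines. Among the 24 other genes, log2 fold changes ran from -0.45 to 1.03 in WT (the last is *MAP1LC3A*, at 0.17 without WT replicate 2), from -0.46 to 0.53 in KK and from -0.44 to 0.57 in R109K. Without WT replicate 2, 6 genes rose and 2 fell in WT. The 5 rising genes in WT became 3 without pTRE replicate 1, pTRE replicate 2 or WT replicate 1. Over all genes, the 2464 rising and 1898 falling in WT became 2366 and 1700 without WT replicate 2. With any 1 library left out, they became 1867 to 2452 rising and 1256 to 1830 falling. In KK the 6 rising genes became 3 without pTRE replicate 3 and 2 without pTRE replicates 1 or 2 or KK replicates 1 or 3, and the 2 falling genes became 1 without any of those 5 libraries. In R109K the 2 rising genes became 1 without pTRE replicate 2 or R109K replicates 1 or 2, and the 1 falling gene became 2 without R109K replicate 2. Its 2 genes past 2-fold became 1 without pTRE replicate 1, pTRE replicate 3 or R109K replicate 1. Over all genes, the 2287 rising and 1772 falling in KK became 1734 to 2188 and 1253 to 1529. The 1666 rising and 1202 falling in R109K became 1126 to 1345 and 701 to 877.

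**Figure D2:**
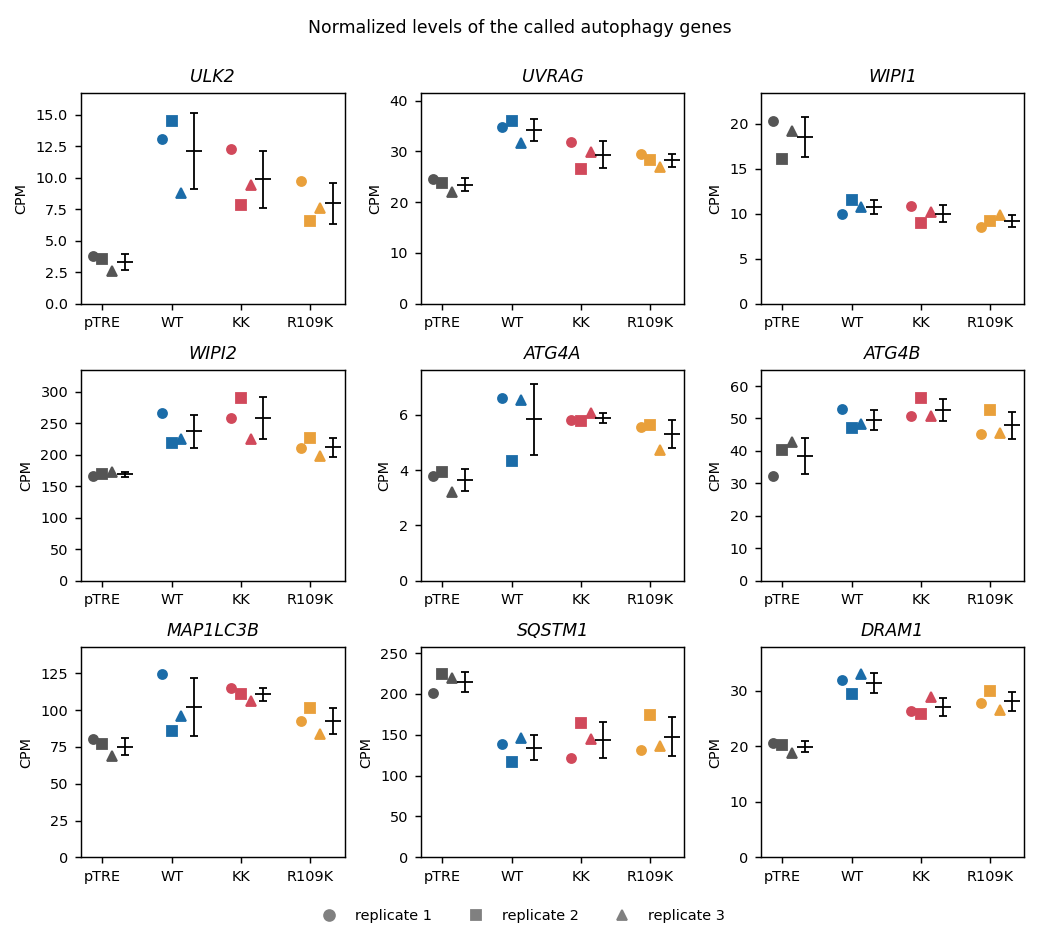
CPM of the 9 called autophagy genes in each replicate (points, shaped by replicate) of pTRE, WT, KK and R109K, with mean and SD (black, n = 3). For ULK2 and DRAM1 all replicates of the 3 E2F1 lines lie above all pTRE replicates, and for WIPI1 and SQSTM1 all lie below.

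The promoters of the 3 genes called in every line are shown first, with that of *ATG2A*, the 1 autophagy gene with an E2F motif in the window searched. The sequences are from RefSeq on GRCh38.p14 and give the 250 bases before the annotated start, 5′ to 3′ on the strand of the gene. Capitals mark an E2F motif (TTTCCCGC, TTTCGCGC, TTTGCCGC or TTTGGCGC) or a GC box (GGGCGG, the motif of Sp1 family factors), on either strand.
ULK2, chr17:19867937-19868186, minus strand: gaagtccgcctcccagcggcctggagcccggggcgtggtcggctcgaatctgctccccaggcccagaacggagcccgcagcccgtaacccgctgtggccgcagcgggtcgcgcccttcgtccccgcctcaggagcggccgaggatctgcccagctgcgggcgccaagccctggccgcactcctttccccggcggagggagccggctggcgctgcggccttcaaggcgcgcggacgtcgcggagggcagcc
DRAM1, chr12:101877330-101877579, plus strand: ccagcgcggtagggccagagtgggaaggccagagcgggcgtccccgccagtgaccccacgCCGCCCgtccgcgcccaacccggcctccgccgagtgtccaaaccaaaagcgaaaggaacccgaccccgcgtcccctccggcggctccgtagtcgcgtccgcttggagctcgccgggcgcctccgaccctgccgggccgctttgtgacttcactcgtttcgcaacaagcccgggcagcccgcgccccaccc
WIPI1, chr17:68457497-68457746, minus strand: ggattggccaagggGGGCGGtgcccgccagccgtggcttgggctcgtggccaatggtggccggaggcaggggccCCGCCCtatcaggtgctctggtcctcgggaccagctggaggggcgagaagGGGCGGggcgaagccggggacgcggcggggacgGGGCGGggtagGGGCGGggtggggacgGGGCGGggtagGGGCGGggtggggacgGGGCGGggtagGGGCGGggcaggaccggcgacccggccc
ATG2A, chr11:64917210-64917459, minus strand: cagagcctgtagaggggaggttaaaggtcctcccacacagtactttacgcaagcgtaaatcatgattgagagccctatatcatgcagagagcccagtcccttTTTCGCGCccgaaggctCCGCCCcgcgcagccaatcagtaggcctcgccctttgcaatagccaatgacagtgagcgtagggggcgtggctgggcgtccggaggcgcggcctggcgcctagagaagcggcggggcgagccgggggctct

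The promoter table held 29 of the 33 genes, and *RB1CC1*, *UVRAG*, *ATG4D* and *MAP1LC3A* had no entry. In windows of 250 bases before to 50 after the start, an E2F motif was found in 1 of the 29 genes and in 4.23% of 15545 promoters of genes in the data. The match, TTTCGCGC in *ATG2A*, began 148 bases before the start. The E-box CACGTG, the motif of TFEB and its relatives, was found for *ATG14* and *ATG3*, against 8.73% of all promoters. A GC box was found for 20 of the 29 genes, against 56.9% of all promoters. *WIPI1* had 10 GC boxes, 9 of them before the start, and 0.27% of all promoters had as many or more, while the next autophagy gene had 5. In none of the 29 windows did matches of different motifs share bases. The upstream 250 bases of *ULK2*, at 76% G and C, held no match to these motifs. A match describes letters, and its absence says only that these letters are not in this window.

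Of the initiation complex, *ULK2* rose in all 3 E2F1 lines, *ULK1* and *ATG13* were not called, and *RB1CC1*, the scaffold also named FIP200, was not called. *ULK2* (chr17:19674142-19771249 on GRCh37, minus strand), a kinase that starts autophagy, was at 3.76, 3.53 and 2.57 CPM in the pTRE replicates. In WT it was at 13.1, 14.5 and 8.78 CPM, in KK at 12.3, 7.87 and 9.43 CPM, and in R109K at 9.76, 6.58 and 7.57 CPM. Every E2F1 sample lay above every pTRE sample, and the 3 E2F1 lines overlapped. The log2 fold change was 1.88 ± 0.24 (SE) in WT (3.67-fold), 1.59 ± 0.24 in KK (3.02-fold) and 1.28 ± 0.24 in R109K (2.43-fold). The edgeR adjusted p-values were 1.97e-05, 8.78e-05 and 0.000822. The fitted rise of *ULK2* was past 2-fold in each line, but when tested against 2-fold it did not pass in KK or R109K. Without WT replicate 2 its log2 fold change in WT was 1.74.

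*RB1CC1* had the highest level per length in the initiation complex. It was at 223, 168 and 151 CPM in pTRE and at 143, 138 and 134 CPM in WT. In KK it was at 134, 145 and 146 CPM, and in R109K at 155, 140 and 159 CPM. pTRE replicate 1 was the highest of all samples, and the WT and KK replicates lay below those of pTRE. Fitted by edgeR, the log2 fold change was -0.38 in WT (adjusted p = 0.0314), -0.35 in KK (adjusted p = 0.0494) and -0.26 in R109K (adjusted p = 0.165). *ULK1*, the kinase most often tied to starvation-induced autophagy, had log2 fold changes of 0.15, 0.02 and -0.04 in WT, KK and R109K, with 95% intervals of -0.09 to 0.39, -0.22 to 0.26 and -0.28 to 0.20. Without WT replicate 2 the value in WT was 0.06. *ATG13*, the adaptor of the complex, had log2 fold changes of 0.26, 0.25 and 0.12 in the same order, with all replicates of each E2F1 line above pTRE and the lowest adjusted p at 0.071.

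Of the PI3K complex, *UVRAG* rose in WT, and *PIK3C3*, *BECN1*, *ATG14* and *AMBRA1* were not called in any line. *UVRAG* (chr11:75526255-75855276 on GRCh37, plus strand), a subunit that takes the complex to later steps and to endosomes, was at 24.6, 23.8 and 22.0 CPM in pTRE. It was at 34.8, 36.1 and 31.7 CPM in WT, at 31.8, 26.6 and 29.8 CPM in KK, and at 29.6, 28.3 and 26.9 CPM in R109K. All 9 E2F1 samples were above the pTRE samples, and WT was also above R109K without overlap. On the log2 scale the fold change was 0.54 ± 0.11 in WT (adjusted p = 0.00129), 0.33 ± 0.11 in KK (adjusted p = 0.0312) and 0.27 ± 0.11 in R109K (adjusted p = 0.0846).

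*ATG14*, which directs the complex to autophagosome formation, had the highest level per length in this group. It was at 49.5, 46.7 and 39.7 CPM in pTRE and at 42.0, 54.9 and 37.0 CPM in WT, where replicate 2 was the highest of all 12 samples. In KK it was at 34.3, 30.3 and 35.9 CPM, and in R109K at 33.6, 32.0 and 34.4 CPM. The KK and R109K samples lay below every pTRE and WT sample. The log2 fold change was -0.03 ± 0.14 in WT, -0.43 ± 0.14 in KK (adjusted p = 0.0244) and -0.44 ± 0.14 in R109K (adjusted p = 0.0282), and R109K was called at an adjusted p of 0.00515 when only the 6 samples compared entered the fit. *FBXO34*, on the opposite strand, covers 20.8% of the exonic bases of *ATG14* in the annotation. *BECN1*, the scaffold Beclin 1, had log2 fold changes of -0.15, -0.19 and 0.06 in WT, KK and R109K. *PIK3C3*, the lipid kinase itself, had 0.02, -0.11 and -0.29, and *AMBRA1*, a regulator of Beclin 1, had 0.25 (0.06 without WT replicate 2), -0.01 and -0.07. *CNTD1* and *PSME3*, on the opposite strand, cover 12.4% and 4.68% of the exonic bases of *BECN1*.

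Of the lipid supply and PI3P reading genes, *WIPI1* fell in all 3 lines, while *WIPI2* rose in WT and KK. Both encode proteins that bind PI3P on the growing membrane, and WIPI2 recruits ATG16L1. *WIPI1* (chr17:66417089-66453654 on GRCh37, minus strand) was at 20.3, 16.1 and 19.1 CPM in pTRE and at 10.0, 11.5 and 10.8 CPM in WT. It was at 10.8, 8.93 and 10.2 CPM in KK and at 8.49, 9.23 and 9.83 CPM in R109K. The pTRE samples were well apart from all 9 E2F1 samples, and R109K lay below WT without overlap. Against pTRE the log2 fold change was -0.79 ± 0.13 in WT, -0.89 ± 0.13 in KK and -1.01 ± 0.13 in R109K, with adjusted p-values of 0.000298, 0.000105 and 5.14e-05. In R109K the fall passed 2-fold, with a 95% interval of -1.30 to -0.73. *ARSG*, on the opposite strand, covers 24.4% of the exonic bases of *WIPI1*, and since the strand setting of the counting is not given in the sources used here, its part in these values was not tested.

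*WIPI2* (chr7:5229827-5273471 on GRCh37, plus strand) had the highest level per length in this group over all samples. It was at 165, 168 and 173 CPM in pTRE and at 267, 219 and 225 CPM in WT. It was at 258, 291 and 224 CPM in KK and at 210, 227 and 198 CPM in R109K. Every E2F1 sample was above every pTRE sample. Fitted by edgeR, the log2 fold change was 0.49 ± 0.12 in WT (adjusted p = 0.00554), 0.61 ± 0.12 in KK (adjusted p = 0.00121) and 0.32 ± 0.12 in R109K (adjusted p = 0.0629). The call in WT was lost without any 1 of pTRE replicates 1, 2 or 3 or WT replicates 1 or 3, at log2 fold changes of 0.38 to 0.51 and adjusted p-values of 0.011 to 0.0374, with no filter (adjusted p = 0.0114) and with only the 6 samples compared (adjusted p = 0.0111). In KK the call held under each alternative. *ATG9A* had log2 fold changes of -0.24, -0.21 and -0.30 in WT, KK and R109K, with the replicates of each line below those of pTRE and adjusted p-values of 0.0986, 0.172 and 0.062. The lipid transfer proteins *ATG2A* and *ATG2B* were not called, at 0.15, -0.18 and -0.11 for *ATG2A*, the gene with the E2F motif, and at -0.11, -0.36 and -0.40 for *ATG2B*.

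Of the 7 conjugation enzymes, which attach ATG12 to ATG5 and LC3 to lipid, none was called in any line by edgeR. At an unadjusted p under 0.05 edgeR gave 2 of them for WT (background 49%), 1 for KK (45.6%) and 1 for R109K (38.6%). DESeq2 called *ATG7* in WT (adjusted p = 0.00728). *ATG3*, the enzyme that passes LC3 to lipid, had the highest level per length of the 7. It was at 92.6, 75.4 and 78.0 CPM in pTRE and at 90.3, 62.2 and 84.8 CPM in WT. It was at 85.0, 93.8 and 86.8 CPM in KK and at 89.8, 99.6 and 83.7 CPM in R109K. WT replicate 2 was the lowest of all samples and the lines overlapped with pTRE, with log2 fold changes of -0.05, 0.11 and 0.15 in WT, KK and R109K.

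*ATG7*, the enzyme that activates both ATG12 and LC3, had a log2 fold change of 0.44 in WT (adjusted p = 0.0176), which was 0.25 without WT replicate 2 (adjusted p = 0.0918) and 0.53 with a call without WT replicate 3 (adjusted p = 0.00672). *VGLL4*, on the opposite strand, covers 18.1% of its exonic bases. *ATG16L2*, a relative of ATG16L1, had log2 fold changes of 0.55 in WT and 0.57 in R109K with adjusted p-values of 0.0224 and 0.024, and passed in both without pTRE replicate 3, at 0.77 and 0.79 with adjusted p-values of 0.00404 and 0.00456. In R109K it also passed with only the 6 samples compared (adjusted p = 0.00456). *ATG12* and *ATG16L1* had the narrowest intervals of the group. Their log2 fold changes in WT, KK and R109K lay between -0.03 and 0.08, and the 95% intervals ran from -0.25 to 0.29. *ATG5*, the partner of ATG12, had -0.31 (-0.18 without WT replicate 2), -0.19 and -0.06, and *ATG10*, the enzyme that joins the pair, had -0.37, -0.46 and -0.27.

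Of the ATG4 proteases, *ATG4A* rose in WT and KK and *ATG4B* rose in KK. *ATG4A* (chrX:107334898-107397901 on GRCh37, plus strand), which prefers GABARAP proteins, was at 3.80, 3.91 and 3.20 CPM in pTRE and at 6.62, 4.34 and 6.54 CPM in WT. It was at 5.81, 5.76 and 6.08 CPM in KK and at 5.54, 5.63 and 4.71 CPM in R109K. All E2F1 samples were above pTRE, and WT replicate 2 was the nearest to it. The log2 fold change was 0.70 ± 0.18 in WT (adjusted p = 0.00673), 0.69 ± 0.18 in KK (adjusted p = 0.00732) and 0.54 ± 0.18 in R109K (adjusted p = 0.0359). Without WT replicate 2 the value in WT was 0.86 (adjusted p = 0.000702). The call in WT was lost without any 1 of pTRE replicates 1, 2 or 3 or WT replicates 1 or 3 (log2 fold changes of 0.60 to 0.75, adjusted p-values of 0.0159 to 0.0365) and with only the 6 samples compared (adjusted p = 0.0324). In KK it was lost without any 1 of the 6 libraries, at log2 fold changes of 0.61 to 0.75 and adjusted p-values of 0.0148 to 0.0359.

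*ATG4B* (chr2:242576628-242613272 on GRCh37, plus strand), the main protease of LC3, was at 32.2, 40.3 and 42.9 CPM in pTRE and at 52.9, 47.0 and 48.4 CPM in WT. It was at 50.7, 56.5 and 50.8 CPM in KK and at 45.3, 52.7 and 45.6 CPM in R109K. All E2F1 samples were above all pTRE samples, among which replicate 1 was the lowest. Its log2 fold change was 0.36 ± 0.12 in WT (adjusted p = 0.028), 0.45 ± 0.12 in KK (adjusted p = 0.00892) and 0.32 ± 0.12 in R109K (adjusted p = 0.0669). The call in KK was lost without any 1 of pTRE replicates 1 or 2 or KK replicates 1, 2 or 3 (log2 fold changes of 0.34 to 0.48, adjusted p-values of 0.0188 to 0.0491), with no filter (adjusted p = 0.0154) and with only the 6 samples compared (adjusted p = 0.0121). *ATG4C* had log2 fold changes of -0.45, -0.33 and -0.17 in WT, KK and R109K. In WT its adjusted p was 0.0129, and it passed by DESeq2 (adjusted p = 0.00783) and without pTRE replicate 3, at -0.54 (adjusted p = 0.00661). *ATG4D* was at 0.12, 0.21 and 0.21 on the same scale, and *KRI1*, on the opposite strand, covers 14.7% of its exonic bases.

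Of the LC3 and GABARAP family, the proteins that mark the autophagosome membrane, *MAP1LC3B* rose in KK. *MAP1LC3B* (chr16:87417559-87438385 on GRCh37, plus strand), whose protein is the usual marker of autophagosomes, was at 80.4, 76.8 and 68.7 CPM in pTRE and at 124, 86.1 and 95.8 CPM in WT. It was at 115, 111 and 106 CPM in KK and at 92.5, 101 and 84.0 CPM in R109K. All E2F1 samples were above all pTRE samples, and KK was above R109K without overlap. Against pTRE the log2 fold change was 0.44 ± 0.13 in WT (adjusted p = 0.0166), 0.56 ± 0.13 in KK (adjusted p = 0.00426) and 0.30 ± 0.13 in R109K (adjusted p = 0.112). In WT it passed by DESeq2 (adjusted p = 0.00618) and without WT replicate 2, at 0.55 (adjusted p = 0.00355). The call in KK was lost without any 1 of pTRE replicates 1, 2 or 3 or KK replicates 1 or 3 (log2 fold changes of 0.49 to 0.60, adjusted p-values of 0.0101 to 0.0252). *MAP1LC3B2* is a near-identical copy, so reads shared by both genes are uncertain.

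*GABARAP* had the highest level per length of all 33 genes. It was at 77.7, 69.7 and 79.1 CPM in pTRE and at 63.9, 37.1 and 66.8 CPM in WT. It was at 63.5, 76.8 and 51.9 CPM in KK and at 60.1, 80.2 and 59.0 CPM in R109K. WT replicate 2 was the lowest of the 12 samples, and the log2 fold change in WT was -0.43 with it and -0.21 without it, at adjusted p-values of 0.0991 and 0.341. *GABARAPL1*, a GABARAP relative, had log2 fold changes of 0.11, 0.18 and -0.18 in WT, KK and R109K, with its KK replicates above those of pTRE and of R109K. *GABARAPL2* had -0.29, -0.02 and 0.00, and WT replicate 2 was again the lowest sample, with -0.10 in WT without it. *MAP1LC3A* lay between 0.14 and 1.77 CPM in the 12 samples, and its 95% interval in WT, -0.35 to 2.41, was too wide to place it. The value in WT was 1.03 with WT replicate 2 and 0.17 without it.

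Of the receptor and regulators, *SQSTM1* fell in WT and KK, *DRAM1* rose in all 3 lines and *TFEB* was not called. *SQSTM1* (chr5:179233398-179265078 on GRCh37, plus strand) encodes p62, which carries ubiquitinated cargo into autophagosomes. It was at 201, 224 and 219 CPM in pTRE and at 139, 117 and 147 CPM in WT. It was at 121, 165 and 144 CPM in KK and at 131, 175 and 137 CPM in R109K. Every E2F1 sample was below every pTRE sample. The log2 fold change was -0.68 ± 0.14 in WT (adjusted p = 0.0017), -0.58 ± 0.14 in KK (adjusted p = 0.00497) and -0.54 ± 0.14 in R109K (adjusted p = 0.0104). In WT without replicate 2 it was -0.59 (adjusted p = 0.00528). The call in KK was lost without any 1 of pTRE replicates 1, 2 or 3 or KK replicates 1 or 3 (log2 fold changes of -0.63 to -0.47, adjusted p-values of 0.0101 to 0.0352). R109K passed by DESeq2 (adjusted p = 0.00217), with at least 10 counts in every sample (adjusted p = 0.00974), with only the 6 samples compared (adjusted p = 0.000925) and without R109K replicate 2, at -0.68 (adjusted p = 0.00491).

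*DRAM1* (chr12:102271358-102405908 on GRCh37, plus strand), a lysosomal membrane protein known as a p53 target, was at 20.6, 20.3 and 18.7 CPM in pTRE and at 31.9, 29.4 and 32.9 CPM in WT. It was at 26.4, 25.8 and 28.8 CPM in KK and at 27.8, 30.0 and 26.6 CPM in R109K. All E2F1 samples were above pTRE, and WT was above KK without overlap. On the log2 scale the fold change was 0.66 ± 0.11 in WT (adjusted p = 0.000204), 0.44 ± 0.11 in KK (adjusted p = 0.00468) and 0.50 ± 0.11 in R109K (adjusted p = 0.00268). The call in KK was lost without any 1 of pTRE replicates 1, 2 or 3 or KK replicates 1 or 3 (log2 fold changes of 0.39 to 0.46, adjusted p-values of 0.0112 to 0.0311), with no filter (adjusted p = 0.0139) and with only the 6 samples compared (adjusted p = 0.0109). In R109K it was lost without pTRE replicates 2 or 3 or R109K replicates 1 or 2 (log2 fold changes of 0.45 to 0.51, adjusted p-values of 0.0117 to 0.0172). *TFEB*, the transcription factor of lysosome and autophagy genes, had log2 fold changes of 0.52 in WT (adjusted p = 0.0325), 0.53 in KK (adjusted p = 0.0323) and 0.14 in R109K (adjusted p = 0.615).

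**Figure D3:**
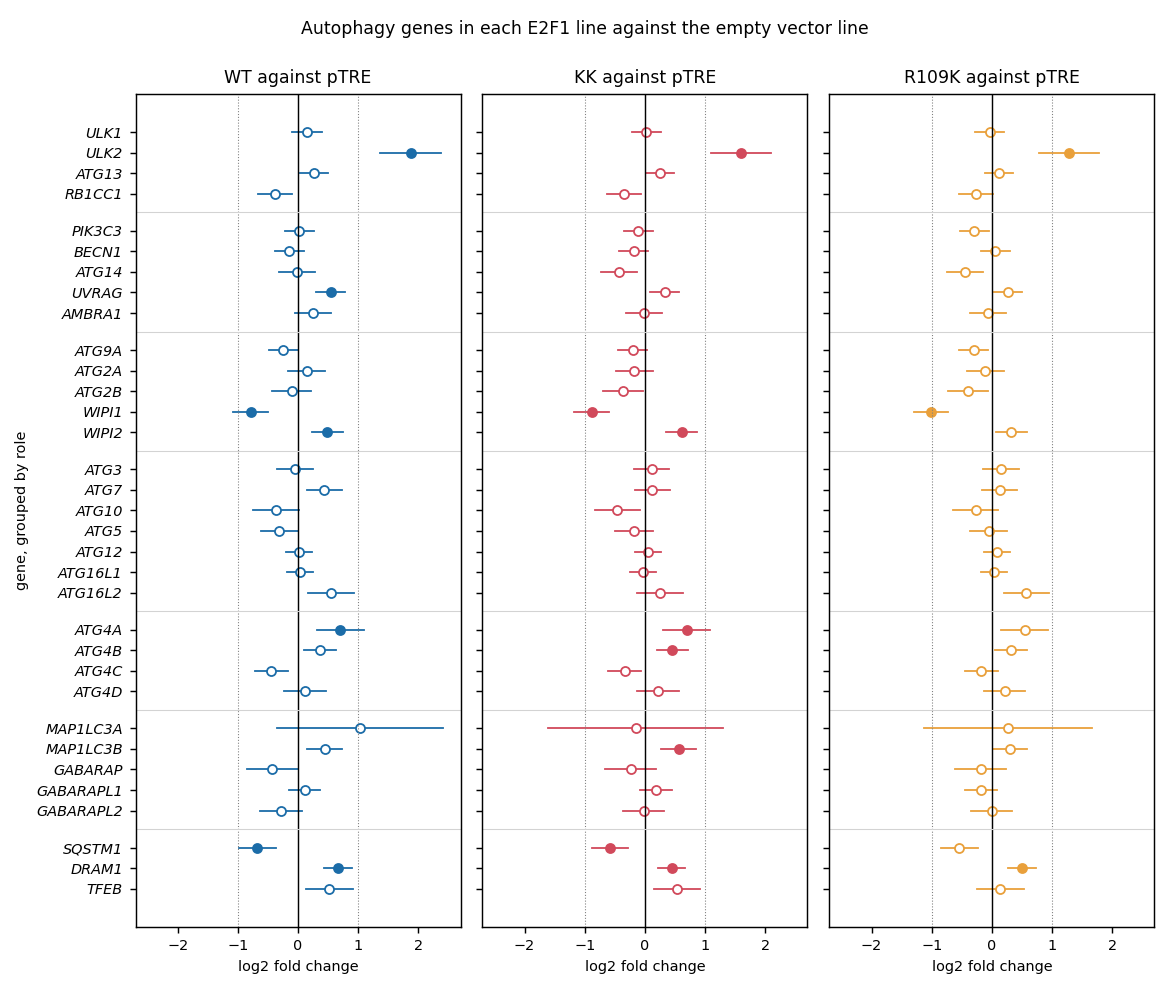
Log2 fold change of the 33 autophagy genes in WT, KK and R109K against pTRE, with 95% intervals from edgeR, grouped by role. Filled points have an adjusted p under 0.01, open points do not, and dotted lines mark 2-fold. ULK2 is the highest in each panel, at 1.88, 1.59 and 1.28, and WIPI1 the lowest, at -0.79, -0.89 and -1.01.

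The E2F1 lines were then compared with each other. In R109K against WT, KK against WT and R109K against KK, 0 of the 33 genes were called by edgeR and 0 by DESeq2, beside 0.71%, 0.012% and 0.132% of all genes in edgeR. Over all 16625 genes, DESeq2 gave 123 higher and 423 lower in R109K against WT. It gave 4 and 6 in KK against WT and 68 and 185 in R109K against KK. At an unadjusted p under 0.05, edgeR gave 7 autophagy genes (21.2%) in R109K against WT beside 22.3% of all genes. In KK against WT it gave 3 (9.09%) beside 8.51%, and in R109K against KK 4 (12.1%) beside 12.4%. Replicates of R109K lay wholly above those of WT for 2 genes (background 13.1%) and wholly below for 8 (14%). KK lay above WT for 0 genes (4.81%) and below for 4 (5.16%), and R109K lay above KK for 1 (9.56%) and below for 5 (11.4%). Leaving out any 1 library also gave 0 of the 33 in each comparison. Over all genes these fits gave at most 63 higher and 231 lower, in R109K against WT without WT replicate 3. A p that misses the threshold does not show that the lines are alike, so the intervals are given.

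*ATG14* had the lowest adjusted p in R109K against WT, with a log2 difference of -0.42 (95% interval -0.72 to -0.12, adjusted p = 0.112). In KK against WT it was -0.41 (interval -0.71 to -0.11, adjusted p = 0.574). Without WT replicate 2, the highest sample for *ATG14*, these differences were -0.25 and -0.24, with adjusted p-values of 0.395 and 0.993. *ULK2* differed by -0.59 in R109K against WT (interval -1.07 to -0.12, adjusted p = 0.144) and by -0.28 in KK against WT (interval -0.75 to 0.19), which were -0.46 and -0.14 without WT replicate 2. *GABARAPL1* had the lowest adjusted p in R109K against KK, with a difference of -0.36 (interval -0.62 to -0.10, adjusted p = 0.197). *SQSTM1* differed by 0.14 in R109K against WT and by 0.10 in KK against WT, with intervals of -0.17 to 0.44 and -0.21 to 0.40. The 95% interval lay within 2-fold either way for 31 of the 33 genes in R109K against WT, for 32 in KK against WT and for 32 in R109K against KK. E2F1 differed by -0.65 on the log2 scale in R109K against WT (adjusted p = 0.0577) and by -0.46 in KK against WT (adjusted p = 0.574), and its part in these differences was not tested.

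**Figure D4:**
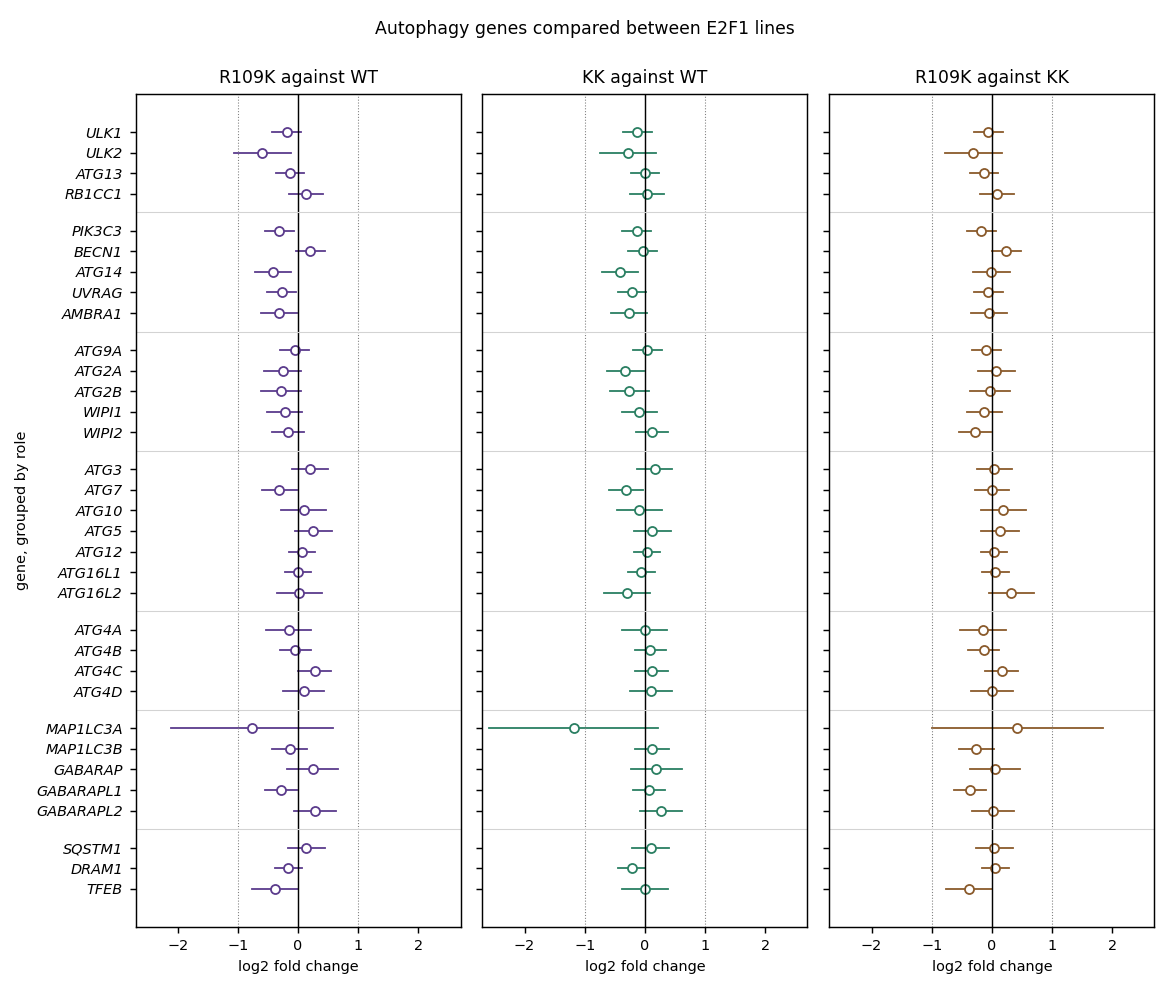
Log2 differences of the 33 autophagy genes between the E2F1 lines, with 95% intervals from edgeR, grouped by role. All points are open because 0 genes had an adjusted p under 0.01, and MAP1LC3A, the gene with the fewest reads, has the widest interval in each panel.

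Other genes of the pathway were taken from lists of 94 tested genes that hold none of the 33. The rising genes numbered 8 in WT, 6 in KK and 2 in R109K, and the falling genes numbered 20, 17 and 12. Over all genes, 14.8%, 13.8% and 10% rose and 11.4%, 10.7% and 7.23% fell. Their median log2 fold change was -0.16, -0.08 and -0.07 in the same order, against 0.00, -0.01 and 0.00 over all genes. Without WT replicate 2, 9 rose and 19 fell in WT. With 1 library left out, the rising genes numbered 5 to 9 in WT (5 without pTRE replicate 2 or WT replicate 1), 2 to 5 in KK (2 without KK replicate 1, 3 without pTRE replicate 2) and 2 in R109K, and DESeq2 gave 9, 11 and 5. Over all genes, 1867 to 2452, 1734 to 2188 and 1126 to 1345 rose in these fits, and DESeq2 gave 2934, 2674 and 2047. The falling genes among the 94 numbered 15 to 20 in WT, 9 to 14 in KK (9 without pTRE replicate 3 or KK replicate 1) and, without any 1 of the 6 libraries, 1 to 6 in R109K, and DESeq2 gave 24, 23 and 16. Over all genes, 1256 to 1830, 1253 to 1529 and 701 to 877 fell in these fits, and DESeq2 gave 2298, 2086 and 1578. The falling counts of the 94 genes in WT and KK include *DEPTOR* and *MAP1LC3C*, which passed the filter on low counts only through pTRE.

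Among 7 transcription factors of autophagy and lysosome genes, *FOXO1*, *FOXO3* and *MITF* rose in WT and KK, and *FOXO1* and *MITF* rose in R109K, beside 14.8%, 13.8% and 10% of all genes in WT, KK and R109K. *FOXO1*, a factor that activates autophagy genes when insulin signalling is low, had log2 fold changes of 2.15 ± 0.21 in WT, 1.73 ± 0.21 in KK and 1.16 ± 0.21 in R109K. It was at 6.87 to 8.93 CPM in pTRE and at 15.1 to 42.6 CPM in the E2F1 lines. *MITF*, a relative of TFEB, had 0.91, 0.90 and 0.76 on the same scale, and the calls for both genes held with any 1 library left out. *FOXO3* had 1.03 in WT and 0.62 in KK, where the call was lost without pTRE replicate 3 or KK replicate 1 (highest adjusted p = 0.0139), and 0.34 in R109K (adjusted p = 0.0742).

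Of 27 lysosome genes, 9 fell in WT and 0 rose, 7 fell and 1 rose in KK, and 7 fell and 0 rose in R109K. Over all genes 11.4%, 10.7% and 7.23% fell and 14.8%, 13.8% and 10% rose. With 1 library left out, 7 to 10 fell in WT, 3 to 7 in KK (3 without pTRE replicate 3, 4 without KK replicate 1) and, without any 1 of the 6 libraries, 0 to 3 in R109K, and DESeq2 gave 11, 11 and 10. Over all genes, 1256 to 1830, 1253 to 1529 and 701 to 877 fell in these fits, and DESeq2 gave 2298, 2086 and 1578. The 1 lysosome gene rising in KK became 2 without pTRE replicate 3 and 0 without any other library. The median log2 fold change of the 27 genes was -0.34 in WT, -0.13 in KK and -0.30 in R109K. *CTSD*, the protease cathepsin D, was at 129 to 177 CPM in pTRE and at 60.1 to 93.6 CPM in WT, with a log2 fold change of -0.93 (adjusted p = 0.000367). In KK and R109K it was at -0.70 and -0.67 with calls (adjusted p = 0.00308 and 0.00553). *CTSL*, cathepsin L, fell in WT (-1.12, adjusted p = 0.000484) and stood at -0.70 and -0.63 in KK and R109K (adjusted p = 0.0131 and 0.0282). *PSAP*, the precursor of saposins, fell in all 3 lines (-0.80, -0.67 and -0.51). Calls for these genes were lost without 1 library for *PSAP* in R109K (any of 6, adjusted p up to 0.0411), *CTSD* in KK (pTRE replicate 3, KK replicates 1 or 3, up to 0.0222) and *CTSD* in R109K (5 of 6, all but pTRE replicate 2, up to 0.0377).

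Of 19 genes of MTORC1 and AMPK control, the kinases that hold back or start autophagy, 2 rose (14.8% of all genes) and 5 fell (11.4%) in WT, 5 fell in KK (10.7%) and 2 fell in R109K (7.23%). In WT the 2 rising became 0 without pTRE replicate 2 or WT replicate 1 and 1 without pTRE replicates 1 or 3, and the 5 falling became 3 without pTRE replicate 2 or WT replicate 3. In KK 4 to 5 fell with 1 library left out, and in R109K 1 fell without pTRE replicate 2 or R109K replicates 1 or 2. Over all genes, 1867 to 2452 rose and 1256 to 1830 fell in WT with 1 library left out. In KK 1253 to 1529 of all genes fell, and in R109K 701 to 877. *DEPTOR*, an inhibitor of mTOR, had 48, 34 and 22 reads in pTRE, 5, 2 and 8 in WT, 7, 6 and 5 in KK and 18, 14 and 5 in R109K. It passed the filter on low counts only through pTRE, so its place among the falling genes of WT and KK is no result and no test is given. *DDIT4*, a stress-induced inhibitor of MTORC1, was at 101, 175 and 216 CPM in pTRE and at 28.2, 34.8 and 70.6 CPM in WT. It fell in WT (-1.88) and KK (-1.62), and in KK the call was lost without pTRE replicate 3 or KK replicate 1 (adjusted p up to 0.0153). *SESN3*, a sestrin, fell in all 3 lines (-0.81, -0.68 and -0.69), with the calls lost in KK without pTRE replicates 1 or 2 or KK replicate 2 (up to 0.023) and in R109K without pTRE replicates 1 or 2 or R109K replicates 1 or 2 (up to 0.0266). *PRKAG2*, a subunit of AMPK, also fell in all 3 lines (-0.50, -0.76 and -0.74), and its call in WT was lost without pTRE replicate 2 or WT replicate 3 (up to 0.022).

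Of 14 genes of fusion with lysosomes, 1 rose (14.8% of all genes) and 2 fell (11.4%) in WT, 1 fell in KK (10.7%) and 1 fell in R109K (7.23%). *EPG5*, a tether of autophagosomes to lysosomes, rose in WT (1.14, adjusted p = 0.000622) and was at 0.67 in KK (adjusted p = 0.022), where it passed without KK replicate 2 (adjusted p = 0.00645). Its WT replicates were at 80.6, 131 and 78.9 CPM, with replicate 2 the highest, against 35.5 to 52.2 CPM in pTRE. *STX17*, the SNARE of the closed autophagosome, fell in WT (-0.54), a call lost without pTRE replicate 2 (adjusted p = 0.0149). *VPS33A* fell in WT and KK (-0.45 and -0.39), and its call in KK was lost without any of 5 libraries, all but KK replicate 2 (adjusted p up to 0.0194). *VPS39*, like *VPS33A* a part of the tethering complex HOPS, fell in R109K (-0.52), a call lost without any of 5 libraries, all but pTRE replicate 1 (up to 0.0261).

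Of 12 other cargo receptors, 1 rose and 2 fell in WT (14.8% and 11.4% of all genes), 2 rose and 2 fell in KK (13.8% and 10.7%), and 1 fell in R109K (7.23%). *OPTN*, a receptor of damaged mitochondria, fell in WT, KK and R109K (-0.66, -0.67 and -0.63), with the call lost in KK without KK replicate 1 (adjusted p = 0.0108) and in R109K without any of 5 libraries, all but R109K replicate 3 (up to 0.0228). *TAX1BP1*, a receptor of protein aggregates, rose in WT and KK (0.52 and 0.57), with calls lost in WT without pTRE replicates 2 or 3 or WT replicates 1 or 3 (up to 0.0421) and in KK without any of 5 libraries, all but pTRE replicate 1 (up to 0.0254). *BNIP3L*, a receptor of mitochondria, fell in WT and KK (-0.45 and -0.53), with calls lost in WT without any of 5 libraries, all but WT replicate 3 (up to 0.0338), and in KK without pTRE replicates 1 or 3 or KK replicates 1 or 2 (up to 0.0156). *FAM134B*, a receptor of endoplasmic reticulum, rose in KK (1.04), a call lost without any of 5 libraries, all but pTRE replicate 3 (up to 0.0441), and in WT it passed without WT replicate 2 (1.14, adjusted p = 0.00553).

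Of 10 other genes of the PI3K complex and vesicle lipid supply, only *VMP1* fell, in all 3 lines (-0.71, -0.68 and -0.56). Over all genes 11.4%, 10.7% and 7.23% fell in WT, KK and R109K. Only *ZFYVE1* rose, in WT (0.64, adjusted p = 0.00061), beside 14.8% of all genes. *VMP1*, a membrane protein needed for autophagosome growth, was at 349 to 477 CPM in pTRE and at 214 to 287 CPM in the E2F1 lines, and its call in R109K was lost without any of 5 libraries, all but pTRE replicate 2 (adjusted p up to 0.037). *MAP1LC3C*, a further LC3 gene, had 15, 13 and 19 reads in the pTRE replicates, 0, 0 and 3 in WT, 1, 3 and 1 in KK and 2, 5 and 6 in R109K. It passed the filter on low counts only through pTRE, so no test or fold is given. *ATG101*, a partner of ATG13, had log2 fold changes of -0.15, 0.04 and 0.11. Of the 2 mitophagy kinases and ligases, 0 were called by edgeR and 1 fell in KK by DESeq2 (2086 of all 16625 genes). At an unadjusted p under 0.05 edgeR gave 1 in WT (background 49%) and 1 in KK (45.6%). Without pTRE replicate 1, 1 of the 2 fell in WT (1448 of all 16967 genes) and 1 in KK (1364).

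**Figure D5:**
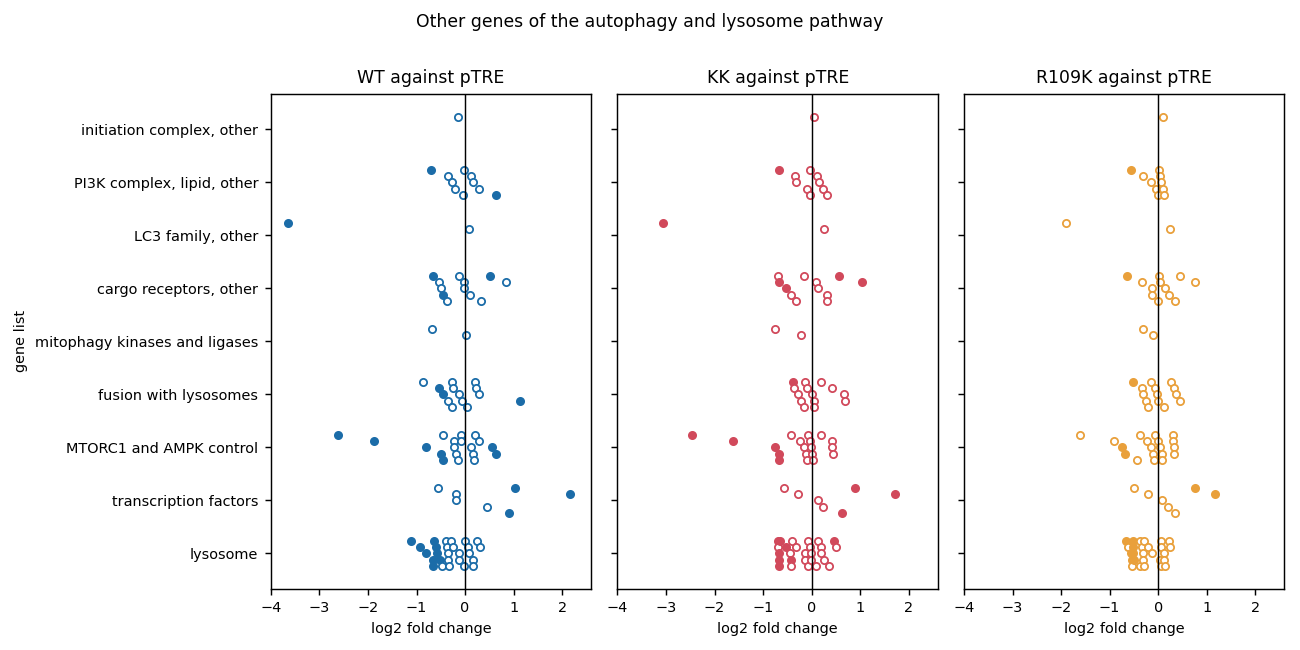
Log2 fold change of 94 other genes of autophagy, lysosomes and their control in WT, KK and R109K against pTRE, 1 point per gene in rows by list, filled where the adjusted p was under 0.01. FOXO1 is the rightmost point at 2.15 in WT, and the lysosome list has 9, 7 and 7 filled points below 0. The leftmost points are MAP1LC3C and DEPTOR, which passed the filter only through pTRE.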

How the data were processed

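RNA-seq was carried out on 3 biological replicates of each of 4 U2OS Tet-On lines. The authors deposited counts, whole numbers of reads per gene symbol for each sample. Per the methods and labels, reads were trimmed with Trim Galore 0.4.3 and aligned to hg19 with STAR 2.5.1 with 2 mismatches allowed, and read counts came from the aligner. The closing lines of the files are of the kind htseq-count writes. They name no gene, hold 34.3 to 68.8% of reads, and were left out. The annotation and strand setting of the counting are not given in the sources used here. The library kit was a directional one. The reads on genes numbered 11500537 to 31040903 across samples.

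From the counts, edgeR 4.0.16 in R 4.3.3 was run on all 12 samples (filterByExpr, TMM, 1 mean per line, quasi-likelihood test, Benjamini-Hochberg over 16625 genes). A call is an adjusted p under 0.01, and past 2-fold adds a change over 2-fold. Intervals of log2 fold changes are 95%. CPM values use TMM library sizes. No pair of replicates of a line agreed within sampling noise. The chi-square per degree of freedom ran from 9.1 for KK replicates 1 and 3 to 57.6 for WT replicates 2 and 3. It was 51.6 for KK replicates 1 and 2 and 36.9 for KK replicates 2 and 3. R109K replicates 1 and 2 were at 31.8, and its replicates 1 and 3 at 10.5. In simulated counts for WT against pTRE on 16473 genes, edgeR recovered 80.5% of 200 changed genes with 2 false calls. This share is not a rate for the 33 autophagy genes, whose recovery at their own fold changes was not tested. Alternatives were DESeq2 1.42.0, other normalization, filters, thresholds and samples, a replicate block and each replicate left out. The alternatives for the other genes of the pathway were chosen after seeing the data.

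The named genes are all 33 autophagy genes, E2F1, and from each list of other genes at most the 4 with an adjusted p under 0.01 in a line against pTRE and the largest absolute log2 fold change. A gene of the lysosome list that this rule names is not reported here. Values in every sample are given for genes called in any comparison and for the gene with the highest level per length in each role. Markers, motifs and genes on the opposite strand are named beside the results they touch. The members and lists were chosen with earlier results of these data known. Positions and exonic lengths are from the GENCODE annotation lifted to GRCh37, the files' build (hg19), and promoters from RefSeq on GRCh38.p14. Python 3.11.15 and matplotlib 3.10.9 drew the figures.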

Additional observations from a re-analysis of the deposited data

Results flagged for a closer look

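Reads outside annotated genes, which enter no comparison, made up 58.7% of the reads of WT replicate 2 and 29.6% of those of KK replicate 3, both above the highest pTRE sample, at 28.3%. The source of these reads was not tested.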

How the results depend on the processing

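Of the calls against pTRE, 5 of 7 in WT (*ULK2*, *DRAM1*, *WIPI1*, *UVRAG*, *SQSTM1*), 3 of 8 in KK (*ULK2*, *WIPI1*, *WIPI2*) and 2 of 3 in R109K (*ULK2*, *WIPI1*) held under each of 12 alternatives, and no call changed sign. At an adjusted p under 0.05, 10 genes rose (21.4% of all genes) and 4 fell (18.7%) in WT, and 4 fell (17.3%) in KK. In R109K 4 rose (15.3%) and 3 fell (12.9%). With only the 6 samples compared, 3 rose in WT (2028 of all 16184 genes) and 3 fell in R109K (1924 of 16016). DESeq2 and a minimum of 10 counts in every sample each gave 2 falling in R109K. Over all genes these settings gave 1578 of 16625 and 1121 of 14431 falling. Tested against 2-fold, 0 genes passed in KK and 0 in R109K. With 1 replicate left out, 3 to 6 rose and 2 to 3 fell in WT, 2 to 4 rose and 1 to 2 fell in KK, and 1 to 2 rose, 1 to 2 fell and 1 to 2 passed 2-fold in R109K. Over all genes, 1867 to 2452 rose and 1256 to 1830 fell in WT. In KK these were 1734 to 2188 and 1253 to 1529, and in R109K 1126 to 1345 and 701 to 877. Replicate numbers were not taken as pairs. Deviations from the line means correlated over 0.1 in 5 of 18 pairs of the same number (mean 0.0436, -0.295 to 0.47) and in 9 of 36 pairs of different numbers (mean -0.0235), while 7 of 12 samples correlated best with their own number, a hint from the data and not from the design. A fit with this replicate block gave 5 rising and 3 falling in WT, 4 and 2 in KK and 3 and 1 in R109K, and 0 in each comparison between E2F1 lines. Over all 16625 genes it gave 2405 rising and 1882 falling in WT, 2261 and 1803 in KK and 1642 and 1238 in R109K. Under it the calls of *ATG4A* in WT and KK (adjusted p = 0.0106 and 0.0108) and of *ATG4B* in KK (0.0108) were lost, and *ATG16L2* in WT and R109K (0.00546 and 0.00557) and *ATG4C* in WT (0.00753) were called. The 11.7 reads per sample limit *MAP1LC3A*, and 3 replicates per line limit the rest.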
